A study of Homo sapiens with 6 samples.

Results

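The genes described here encode the DBF4-CDC7 kinase and the MCM helicase, the machinery that fires replication origins. The 10 members are DBF4, DBF4B, CDC7, MCM2, MCM3, MCM4, MCM5, MCM6, MCM7 and MCM10, and they were found by gene symbol in the probe table. They are read by 11 of the 21214 array rows with a symbol, DBF4B by 2 rows and every other member by 1. The set was chosen by the measured log2 differences of these arrays: DBF4 was picked for its higher signal in cells with TIP-1 shRNA, and the other members were joined to it as its partners. Values of the members in the 3 groups are therefore a description, and calls made for them by the fit across all rows support nothing further.

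The cells were MDA-MB-231, a human triple-negative breast cancer line, and carried TIP-1 shRNA 159, TIP-1 shRNA 162 or a control shRNA. TIP-1 is the small PDZ-domain protein encoded by TAX1BP3. Each group held 2 independent clones and each clone was measured on 1 Affymetrix Human Gene 1.0 ST array, 6 arrays in all, without technical replicates. All groups were kept in RPMI with 10% serum from fetal calves, reseeded after trypsin and cultured overnight before RNA was taken. Each group is limited as a model to 2 clones of 1 line with 1 hairpin, so the hairpin and the history of its clones cannot be told apart.

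A replication origin is licensed in G1 when the origin recognition complex, CDC6 and CDT1 load the ring of MCM2 to MCM7 onto DNA in an inactive form. At the onset of S phase CDC7, a kinase that is active only when bound to DBF4 or to the related subunit DBF4B, phosphorylates MCM subunits, chiefly MCM2 and MCM4. CDC45 and the GINS complex then join the ring to make the active helicase, and MCM10 takes part in its activation. DBF4 protein is known to accumulate in S phase and to be degraded after mitosis, and MCM genes are classic targets of E2F factors.

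Values are log2 signals as deposited, so a difference of 1 is a 2-fold difference in array signal. TAX1BP3 stood at 10.40 and 10.40 in the shRNA 159 clones and at 9.85 and 10.01 in the shRNA 162 clones, against 11.65 and 11.56 in the control clones. Its row is shared with the readthrough transcript P2RX5-TAX1BP3. Array medians lay between 7.37 and 7.44, and clones of 1 group correlated at 0.9958 to 0.9971 across rows. Of 6 mesenchymal markers of the line 5, VIM and CD44 among them, lay above 90% of rows on every array. Of 10 luminal markers only 3, ESR1, PGR and CDH1, lay below the array median on every array. ERBB2, GATA3 and FOXA1 lay above it on every array, and EPCAM and KRT19 lay on either side of it. The luminal keratins KRT8 and KRT18 lay above 90% of rows. Against control, 1 of 10 luminal markers passed as higher with shRNA 159 and 1 of 10 as lower with shRNA 162. Of 5 leukocyte markers CD68 alone lay above the median, and PTPRC ranged from 4.84 to 5.19. Of 7 stromal and endothelial markers 5 lay below the median on every array.

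DBF4, the activating subunit of the kinase, was the member whose signal differed most between groups. It read 8.15 and 8.18 in the shRNA 159 clones and 6.41 and 6.45 in the shRNA 162 clones, against 5.80 and 5.78 in the control clones. The 3 groups did not overlap, and clones of 1 group lay within 0.04 of each other. DBF4 was 2.37 higher with shRNA 159 than with control (SE 0.07, 95% confidence interval 2.21 to 2.54), a 5.18-fold difference in signal. With shRNA 162 it was 0.64 higher than with control (SE 0.07, interval 0.47 to 0.80), or 1.56-fold. Its control signal lay above only 20.2% of array rows and was not shown to exceed background, so the fold values refer to array signal and need not equal the fold in transcript.

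The stretch upstream of DBF4 is shown because DBF4 and its neighbour SLC25A40, which encodes a mitochondrial carrier, are read in opposite directions from it. The sequence is the 250 bases before the DBF4 start on the plus strand of chr7:87876243-87876492 (RefSeq, GRCh38.p14), and capitals mark the 132 bases between the SLC25A40 start and the DBF4 start.
DBF4: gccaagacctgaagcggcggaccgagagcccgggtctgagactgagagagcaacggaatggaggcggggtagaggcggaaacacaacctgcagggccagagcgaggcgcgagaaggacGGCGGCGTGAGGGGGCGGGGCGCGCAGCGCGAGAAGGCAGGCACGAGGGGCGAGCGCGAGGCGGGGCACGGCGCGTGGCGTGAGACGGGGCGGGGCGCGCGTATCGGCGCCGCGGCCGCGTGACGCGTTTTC
SLC25A40 read 11.05 and 11.09 in the shRNA 159 clones and 9.38 and 9.34 in the shRNA 162 clones, against 8.86 and 8.54 in the control clones. Its difference from control was 2.37 with shRNA 159 (SE 0.11, limma adjusted p = 3.6e-05) and 0.66 with shRNA 162 (SE 0.11, limma adjusted p = 0.0081), beside the DBF4 differences of 2.37 and 0.64. The pair was not alone in this. Of the 10 nearest measured genes of DBF4, 9 rose with shRNA 159, where 1.69% of all rows did, among them CROT by 2.22 and ADAM22 by 1.97. Any part of the shared stretch in these differences was not tested.

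Neither of the 2 other kinase genes passed against control. CDC7, the catalytic subunit, read 8.01 and 7.78 in the shRNA 159 clones and 8.31 and 8.04 in the shRNA 162 clones, against 7.83 and 7.83 in the control clones. The shRNA 159 clones lay on either side of the control clones, and both shRNA 162 clones lay above them. The CDC7 difference from control was 0.06 with shRNA 159 (interval -0.20 to 0.32) and 0.34 with shRNA 162 (interval 0.08 to 0.60), and neither passed.

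DBF4B, the alternative activating subunit, is read by 2 rows, neither of which passed. Its brighter row read 9.05 and 9.02 in the shRNA 159 clones and 8.79 and 8.91 in the shRNA 162 clones, against 8.86 and 9.07 in the control clones. The dimmer row read 8.44 and 8.50 with shRNA 159 and 8.30 and 8.52 with shRNA 162, against 8.32 and 8.35 with control. Against control, both rows had small positive differences with shRNA 159, 0.07 (interval -0.15 to 0.28) and 0.13 (interval -0.07 to 0.34). With shRNA 162 the brighter row stood at -0.12 (interval -0.33 to 0.10) and the dimmer at 0.08 (interval -0.13 to 0.28), so the rows differed in sign and neither passed.

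**Figure D1:**
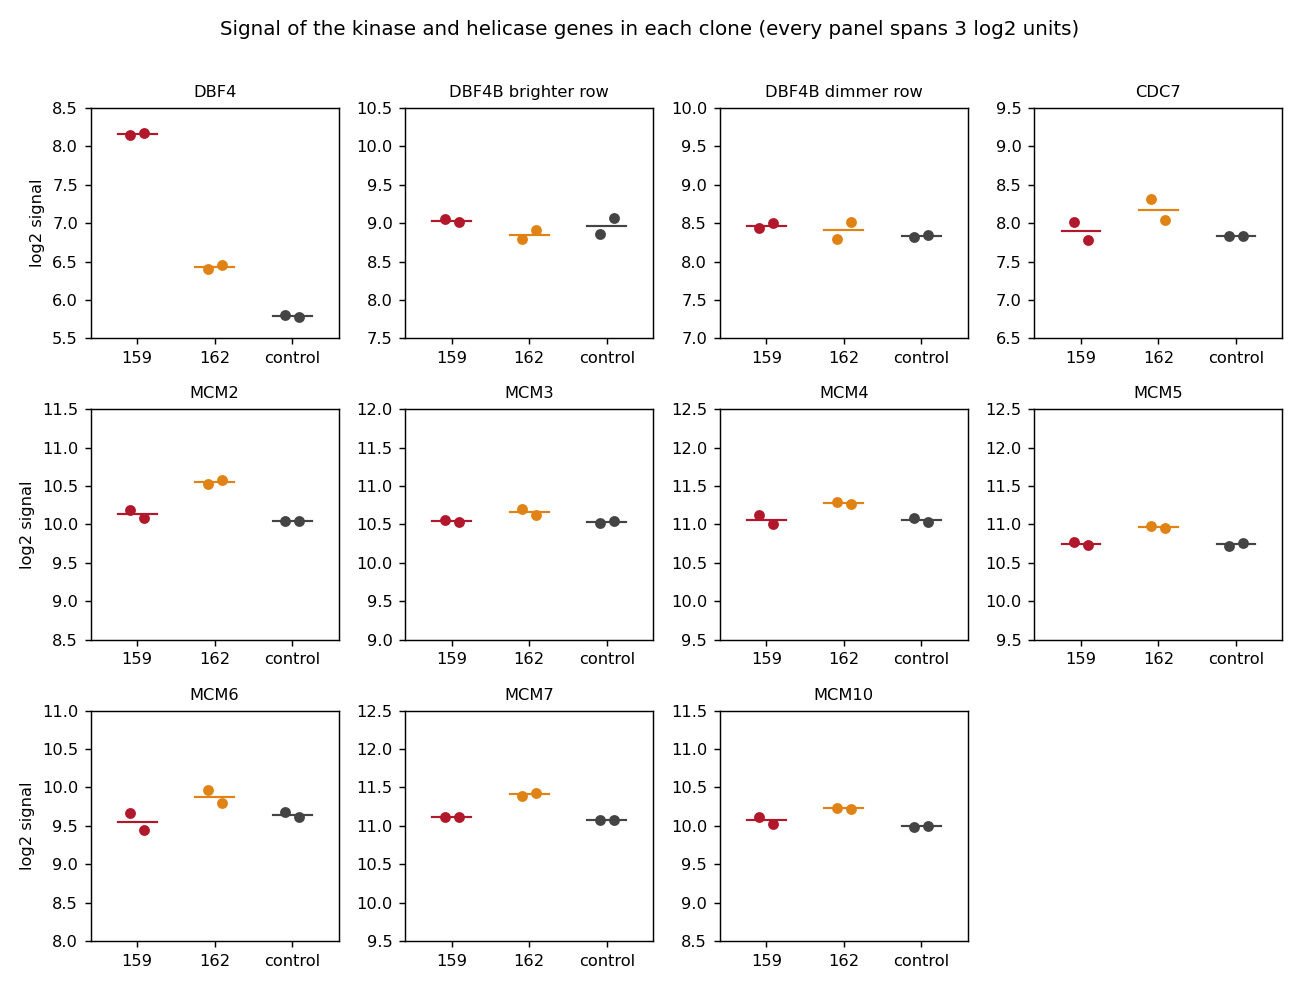
Log2 signal (vertical axis) of the 11 member rows in each clone with TIP-1 shRNA 159, TIP-1 shRNA 162 and control shRNA (horizontal axis). Points are clones and lines are group means (n = 2), and every panel spans the same log2 range. DBF4 separates all 3 groups, 8.15 and 8.18 with shRNA 159, 6.41 and 6.45 with shRNA 162 and 5.80 and 5.78 with control, while the MCM panels show slightly higher shRNA 162 clones.

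Of the 6 subunits MCM2 to MCM7, 0 passed with shRNA 159 in limma (0 at an unadjusted p under 0.05), where 2.53% of all rows passed. With shRNA 162, where 9.52% of all rows passed, MCM2 and MCM7 rose and the other 4 did not pass. Nothing is read from these counts. MCM2, a main substrate of the kinase, read 10.19 and 10.09 in the shRNA 159 clones and 10.53 and 10.58 in the shRNA 162 clones, against 10.04 and 10.04 in the control clones. Both shRNA 162 clones lay above the other 4 clones. MCM2 rose by 0.51 with shRNA 162 (SE 0.08, interval 0.34 to 0.69, 1.43-fold), and its difference with shRNA 159 was 0.10 (interval -0.07 to 0.28).

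MCM7, a core ATPase subunit of the ring, read 11.11 and 11.12 in the shRNA 159 clones and 11.39 and 11.43 in the shRNA 162 clones, against 11.08 and 11.07 in the control clones. Again the shRNA 162 clones stood apart from the rest. MCM7 rose by 0.33 with shRNA 162 (SE 0.07, interval 0.17 to 0.50, 1.26-fold) and differed from control by 0.04 with shRNA 159 (interval -0.13 to 0.20). An intron of MCM7 carries a cluster of microRNA genes, whose rows MIR25, MIR93 and MIR106B differed from control by -0.06, 0.10 and -0.14 with shRNA 162, and none passed.

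MCM4, the other main substrate of the kinase, read 11.12 and 11.01 with shRNA 159 and 11.29 and 11.27 with shRNA 162, against 11.08 and 11.03 with control. MCM5 read 10.77 and 10.73 with shRNA 159 and 10.98 and 10.95 with shRNA 162, against 10.72 and 10.76 with control. Both subunits showed the same picture, with the shRNA 162 clones above the other groups, which overlapped. The differences of MCM4 and MCM5 from control were both 0.22 with shRNA 162 (intervals 0.05 to 0.40 and 0.05 to 0.39) and 0.01 with shRNA 159 (intervals -0.17 to 0.19 and -0.16 to 0.18).

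MCM6 read 9.67 and 9.44 with shRNA 159 and 9.96 and 9.80 with shRNA 162, against 9.68 and 9.61 with control, and its shRNA 159 clones were the most spread of any MCM row. Its difference from control was 0.23 with shRNA 162 (interval -0.0 to 0.46) and -0.09 with shRNA 159 (interval -0.33 to 0.14). MCM3 read 10.56 and 10.53 with shRNA 159 and 10.70 and 10.63 with shRNA 162, against 10.52 and 10.55 with control. MCM3 had the smallest shRNA 162 difference of the ring, 0.12 (interval -0.04 to 0.29). MCM4, MCM5, MCM6 and MCM3 did not pass in either comparison with control. MCM10, which is not part of the ring, read 10.12 and 10.02 with shRNA 159 and 10.23 and 10.22 with shRNA 162, against 9.99 and 10.00 with control. Its difference was 0.23 with shRNA 162 (interval 0.06 to 0.40) and 0.07 with shRNA 159 (interval -0.10 to 0.25), and neither passed.

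With shRNA 159, 1 of 11 member rows passed (DBF4, higher), at a background of 2.53% of all rows called, 1.69% higher and 0.839% lower. With shRNA 162, 3 of 11 passed, DBF4, MCM2 and MCM7, all higher, at a background of 9.52% called in either direction, 5.88% higher and 3.64% lower. Over all rows this was 1247 higher and 772 lower, and after quantile normalization 1078 higher and 1074 lower. Both shRNA 162 clones lay above both control clones in 9 of 11 member rows, a pattern that 33.3% of all rows showed, and below both in 0 of 11, against 23.3% of all rows. For the shRNA 159 clones this held in 5 of 11 member rows, against 20.7% of all rows, and the reverse in 0 of 11, against 21.7%. The median difference of MCM2 to MCM7 was 0.01 with shRNA 159 and 0.23 with shRNA 162, beside medians over all rows of -0.01 and 0.02. Since these contrasts were known when the members were chosen, nothing is read from these counts. The MCM2 call with shRNA 162 was lost without control clone 1 (adjusted p = 0.052) or shRNA 162 clone 2 (adjusted p = 0.056). The MCM7 call was lost without either control clone or either shRNA 162 clone (adjusted p between 0.11 and 0.16), whereas DBF4 passed in every setting that tested it.

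Set directly against each other, the hairpins gave opposite orders for DBF4 and for the helicase. DBF4 was 1.73 higher with shRNA 159 than with shRNA 162 (SE 0.07, interval 1.57 to 1.90, 3.33-fold). MCM2 was lower with shRNA 159 by a difference of -0.41 (interval -0.59 to -0.24) and MCM7 by -0.30 (interval -0.46 to -0.13). These 3 rows of 11 passed, at a background of 8.65% called, 4.02% higher and 4.64% lower. Both shRNA 159 clones lay above both shRNA 162 clones in 2 of 11 member rows, against 19.3% of all rows, and below in 8 of 11, against 32.6%. All 6 subunits MCM2 to MCM7 had both shRNA 159 clones below both shRNA 162 clones. MCM6 differed by -0.32 (interval -0.56 to -0.09), CDC7 by -0.28 (interval -0.54 to -0.02), MCM4 by -0.22, MCM5 by -0.21, MCM10 by -0.16 and MCM3 by -0.12, and none of these passed. The MCM7 call was lost with only the 4 arrays compared (adjusted p = 0.077) and without any 1 of the 6 arrays (adjusted p between 0.077 and 0.22). The MCM2 call was lost without shRNA 162 clone 1 (adjusted p = 0.076), shRNA 162 clone 2 (adjusted p = 0.11) or shRNA 159 clone 2 (adjusted p = 0.059).

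**Figure D2:**
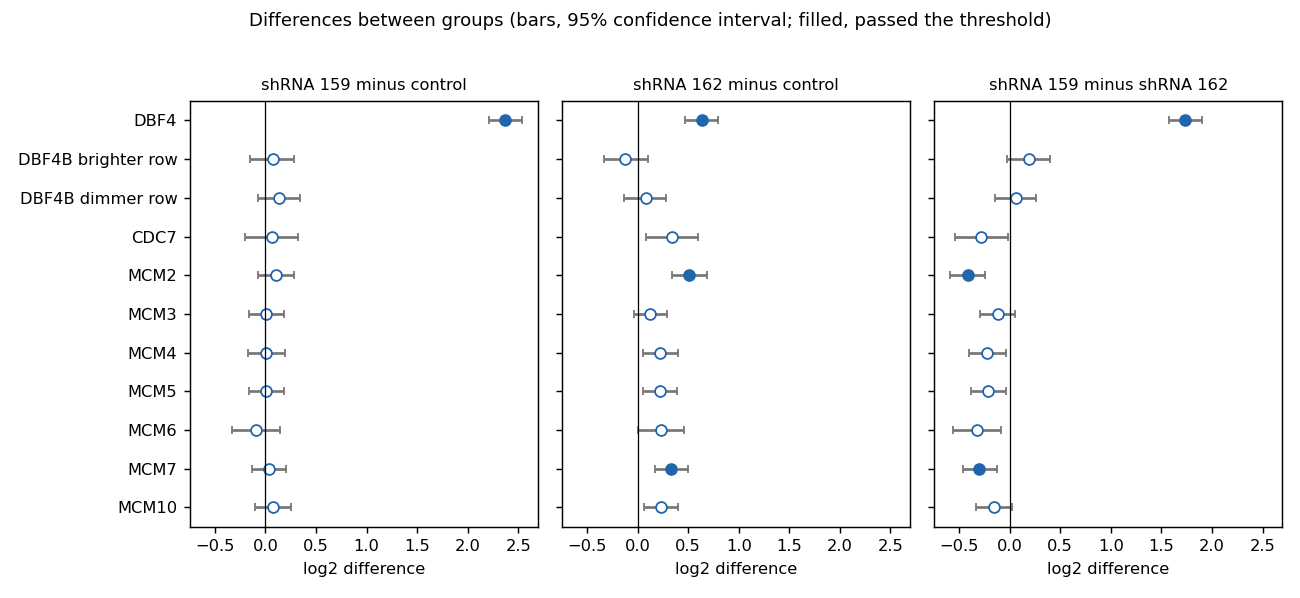
Log2 differences (horizontal axis) of the 11 member rows for shRNA 159 minus control, shRNA 162 minus control and shRNA 159 minus shRNA 162. Bars are 95% confidence intervals and filled points passed the threshold. DBF4 lies at 2.37, 0.64 and 1.73, and MCM2 and MCM7 are filled with shRNA 162 (0.51 and 0.33) and between the hairpins (-0.41 and -0.30).

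Promoter letters were compared because E2F sites are a known shared feature of replication genes. The RefSeq windows (250 bases before to 50 after each start, GRCh38.p14) held 8 of the 10 members, all but MCM4 and MCM5. The E2F letters, which are TTCCCGC and its variants TTCGCGC, with TTGCCGC and likewise TTGGCGC, on either strand, occurred in 5 of these 8, CDC7, MCM2, MCM3, MCM6 and MCM7, against 13.0% of 27305 gene promoters. They did not occur in the windows of DBF4, DBF4B and MCM10, and in MCM2 they lay past the start. CCAAT, on either strand, occurred in 4 of 8 (MCM3, MCM6, MCM7 and MCM10), against 35.7% of promoters. For the 5 genes with the letters, the differences from control with shRNA 162 were 0.51 (MCM2), 0.34 (CDC7), 0.33 (MCM7), 0.23 (MCM6) and 0.12 (MCM3). Of these MCM2 and MCM7 passed. Without the letters stood DBF4 at 0.64, MCM10 at 0.23 and the DBF4B rows at -0.12 and 0.08. Whether E2F sites had a part in these differences was not tested. The 250 bases before the starts of CDC7 (chr1:91500601-91500850, plus strand), MCM6 (chr2:135876444-135876693, minus strand) and MCM7 (chr7:100101398-100101647, minus strand) are given to set beside that of DBF4. Capitals mark complete E2F letters. In MCM6 TTGGCGC overlaps TTCGCGC of the opposite strand at both places.
CDC7: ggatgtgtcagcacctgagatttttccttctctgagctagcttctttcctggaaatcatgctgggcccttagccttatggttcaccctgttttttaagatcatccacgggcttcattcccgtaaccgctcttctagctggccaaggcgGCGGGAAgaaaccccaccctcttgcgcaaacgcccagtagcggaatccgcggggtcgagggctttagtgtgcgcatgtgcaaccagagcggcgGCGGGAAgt
MCM6: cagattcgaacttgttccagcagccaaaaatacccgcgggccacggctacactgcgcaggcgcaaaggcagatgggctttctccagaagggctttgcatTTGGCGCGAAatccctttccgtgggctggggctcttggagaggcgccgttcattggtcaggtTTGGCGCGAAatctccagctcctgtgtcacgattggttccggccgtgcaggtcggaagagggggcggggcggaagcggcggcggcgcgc
MCM7: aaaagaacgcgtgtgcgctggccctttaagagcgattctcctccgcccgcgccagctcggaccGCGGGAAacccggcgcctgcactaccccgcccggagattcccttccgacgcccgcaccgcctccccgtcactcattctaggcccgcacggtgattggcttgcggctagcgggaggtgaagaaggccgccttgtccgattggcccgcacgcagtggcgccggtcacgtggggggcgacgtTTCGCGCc

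Licensing, helicase activation and fork genes were set beside the members. These lists and those that follow were chosen with earlier results of these data known, so nothing is read from their shares of calls. Of all rows 2.53% passed with shRNA 159. With shRNA 162, 16.7% of licensing genes and 9.09% of helicase activation genes passed, against 9.52% of all rows. Of 12 other licensing genes, 0 passed with shRNA 159 in limma (1 at an unadjusted p under 0.05), and 2 rose with shRNA 162, CDT1, a loading factor of the MCM ring, by 0.32 (SE 0.07, limma adjusted p = 0.032) and ORC3, an origin recognition subunit, by 0.32 (SE 0.08, limma adjusted p = 0.039). ORC3 read 10.17 and 10.12 with shRNA 159, against 9.87 and 9.79 with control, and its difference of 0.31 there did not pass. The CDT1 call with shRNA 162 was lost after quantile normalization, where its difference was 0.26. Of 11 helicase activation genes 0 passed with shRNA 159 in limma (2 at an unadjusted p under 0.05) and 1 rose with shRNA 162, MTBP, a partner of the firing factor TICRR, by 0.59 (SE 0.14, limma adjusted p = 0.034). CDC45 differed from control by 0.09 with shRNA 159 and by 0.27 with shRNA 162, and GINS1 by 0.02 and 0.01, and neither gene passed.

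Of 27 fork genes 1 rose with shRNA 159 (3.7%, against 2.53% of all rows called), and 3 rose and 2 fell with shRNA 162 (18.5%, against 9.52%). RFC2, a subunit of the clamp loader, rose with both hairpins, by 0.61 with shRNA 159 (SE 0.08, limma adjusted p = 0.0066) and by 0.52 with shRNA 162 (SE 0.08, limma adjusted p = 0.0065). RFC4, another clamp loader subunit, fell by 0.62 with shRNA 162 (SE 0.09, limma adjusted p = 0.0046) and differed by -0.01 with shRNA 159. PRIM1, the catalytic primase subunit, rose by 0.53 with shRNA 162 (SE 0.08, limma adjusted p = 0.0074), while POLD4, the small subunit of polymerase delta, fell by 0.37 (SE 0.08, limma adjusted p = 0.026). Between the hairpins RFC4 was 0.61 higher with shRNA 159, and PRIM1 and CDT1 were lower with differences of -0.43 each. Across these 50 replication genes 1 passed with shRNA 159 (2.00%, against 2.53% of all rows), 8 passed with shRNA 162 (16.0%, against 9.52%) and 3 passed between the hairpins (6.00%, against 8.65%). After quantile normalization 6 of the 50 passed with shRNA 162 (4 higher and 2 lower), against 2152 of all 21214 rows. Their median difference was 0.05 with shRNA 159 and 0.17 with shRNA 162, against -0.01 and 0.02 over all rows. Without control clone 1 or 2 the shRNA 162 count was 3 or 2, without shRNA 162 clone 1 or 2 it was 3 or 1, and without control clone 1 the shRNA 159 count was 0 (6 at an unadjusted p under 0.05).

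Among 15 checkpoint genes and regulators of the kinase pathway 1 rose with shRNA 159 (6.67%, against 2.53% of all rows called) and 2 rose with shRNA 162 (13.3%, against 9.52%). Their median differences were 0.04 and 0.06. PPP1CB, a catalytic subunit of the phosphatase that counters CDC7 at origins, rose by 0.44 with shRNA 159 (SE 0.08, limma adjusted p = 0.029). With shRNA 162 the checkpoint kinases ATR and CHEK2 rose by 0.59 (SE 0.10, limma adjusted p = 0.0093) and 0.48 (SE 0.09, limma adjusted p = 0.015). RIF1, which brings the phosphatase to origins, differed from control by 0.04 with shRNA 159 and by 0.30 with shRNA 162 and did not pass. Between the hairpins WEE1, the inhibitory kinase of CDK1, was 0.47 higher and PPP1CB was 0.43 higher with shRNA 159, while CHEK2 and ATR were lower with differences of -0.53 and -0.46.

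Among 22 measured G1/S control genes 2 rose and 1 fell with shRNA 159 (13.6%, against 2.53% of all rows called), and 4 rose with shRNA 162 (18.2%, against 9.52%). As this list too was chosen with earlier results known, nothing is read from these shares. Their median differences were -0.02 and 0.04. CDK6, a kinase of G1 phase, rose by 1.30 with shRNA 159 (SE 0.10) and by 1.22 with shRNA 162 (SE 0.10). With shRNA 159 the repressor E2F6 rose by 0.54 and cyclin D2 (CCND2) fell by 0.73 (limma adjusted p = 0.014 and 0.0061). With shRNA 162 the CDK inhibitor CDKN1B rose by 0.59 and the RB relatives RBL1 and RBL2 rose by 0.33 each (limma adjusted p = 0.0048, 0.041 and 0.034). Between the hairpins E2F6 was 0.36 higher with shRNA 159, and CCND2 and RBL1 were lower with differences of -0.51 and -0.36. E2F1, an activator of MCM genes, differed from control by -0.16 with shRNA 159 and by 0.05 with shRNA 162 and did not pass.

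Of 22 mitosis genes 0 passed with shRNA 159 in limma (1 at an unadjusted p under 0.05), where 2.53% of all rows passed. With shRNA 162 the mitotic kinase AURKA fell by 0.49 and the transcription factor FOXM1 rose by 0.39 (limma adjusted p = 0.013 and 0.023). These 2 are 9.09% of the list, against 9.52% of all rows. An unadjusted p under 0.05 in limma was reached with shRNA 162 by 8 of the 22, and by 5322 of all 21214 rows. The list's median difference was 0.01 with shRNA 159 and 0.11 with shRNA 162. MKI67, a marker of cycling cells, differed by -0.07 with shRNA 159 and by 0.21 with shRNA 162 (interval 0.02 to 0.41). The S phase genes PCNA and CCNA2 differed by 0.02 and 0.12 with shRNA 162, and neither they nor MKI67 passed. PCNA and CCNA2 were picked after their values were seen and do not stand for all replication genes. Of the 27 fork genes, 23 lay above 0 and 4 below with shRNA 162 (median 0.15), against 11746 and 9468 of all rows (median 0.02). Whether the MCM differences went with the share of cells in S phase was not tested, and in bulk RNA that share and the transcript level per cell cannot be told apart.

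**Figure D3:**
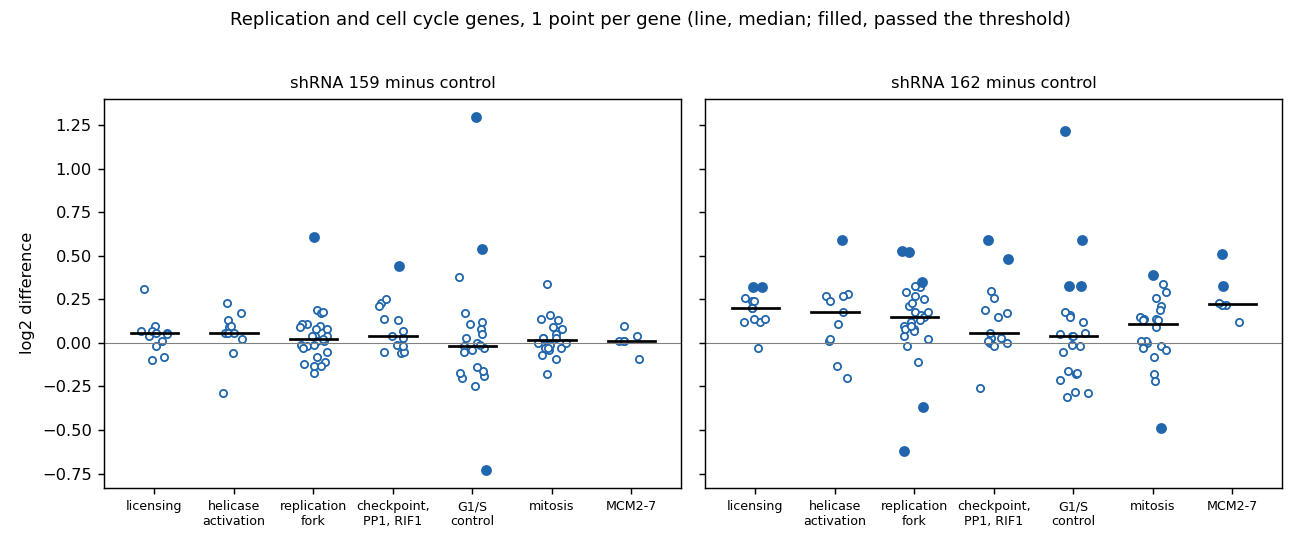
Log2 difference (vertical axis) of each measured gene in 6 lists of replication and cell cycle genes and of MCM2 to MCM7, for shRNA 159 minus control and shRNA 162 minus control. Each point is 1 gene, filled points passed the threshold and lines are medians. The replication lists and MCM2 to MCM7 have medians of 0.01 to 0.06 with shRNA 159 and of 0.15 to 0.23 with shRNA 162, and the highest point of both panels is CDK6.

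The measured genes next to DBF4 on chromosome 7 were mostly higher with shRNA 159, and 5 of 10 passed with shRNA 162. Of its 10 nearest measured genes 9 rose with shRNA 159, where 1.69% of all rows were called higher, and 5 rose with shRNA 162, where 5.88% were. None of the 10 passed as lower with either hairpin. Their median differences were 1.18 with shRNA 159 and 0.32 with shRNA 162, against -0.01 and 0.02 over all rows. Besides SLC25A40, ADAM22, which encodes a surface protein of the disintegrin family, rose by 1.97 with shRNA 159 and 0.46 with shRNA 162. The calcium-binding sorcin (SRI) rose by 1.64 and 0.52, RUNDC3B rose by 1.41 and 0.49 and the peroxisomal enzyme CROT rose by 2.22 and 0.38. The drug exporter ABCB1 rose by 0.78 with shRNA 159 and differed by 0.01 with shRNA 162, and ABCB4, STEAP4 and ZNF804B rose by 0.64, 0.95 and 0.66 with shRNA 159 and did not pass with shRNA 162 (0.27, 0.09 and 0.04). The mean control signals of ABCB4, STEAP4, ZNF804B and ADAM22 were 5.87, 4.91, 5.61 and 6.04, below the lower quartiles of the control arrays (6.10 and 6.15), so these rows too were not shown to exceed background in control cells. TEX47 did not pass in either (0.55 and -0.12). All 10 were higher with shRNA 159 than with shRNA 162, by 0.37 (ABCB4) to 1.84 (CROT). Without control clone 1 or 2 or shRNA 162 clone 1 or 2, some of the shRNA 162 calls were lost, and those of CROT and ADAM22 were lost in each of these 4 cases. With shRNA 159 the calls of ABCB1, ZNF804B and ABCB4 were lost without control clone 1 (adjusted p = 0.11, 0.11 and 0.061).

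**Figure D4:**
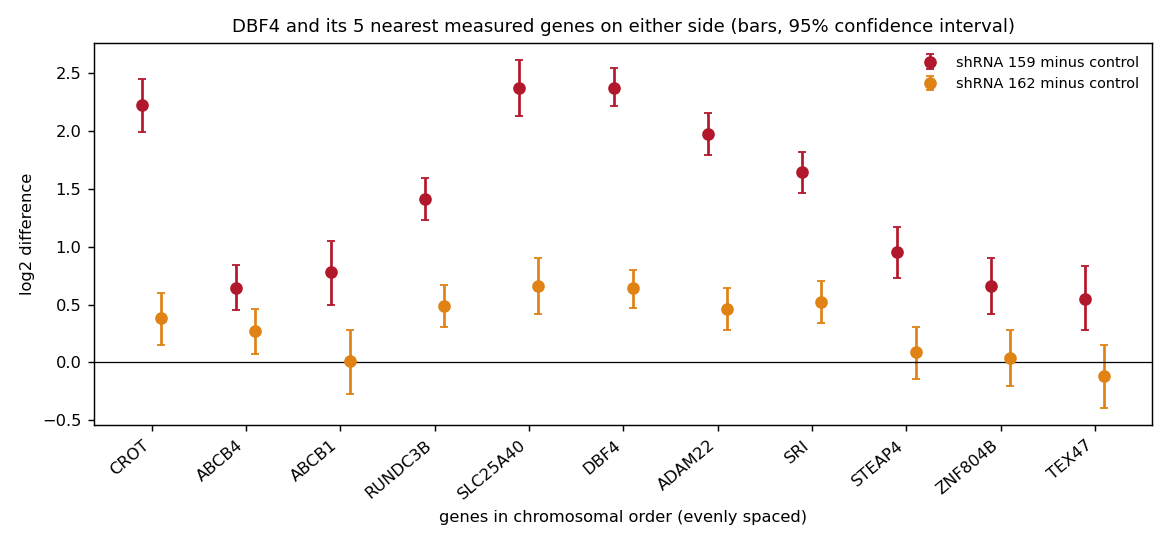
Log2 difference (vertical axis) of DBF4 and its 5 nearest measured genes on either side, evenly spaced in chromosomal order (horizontal axis), for shRNA 159 minus control and shRNA 162 minus control. Bars are 95% confidence intervals. Among the genes shown, the shRNA 159 values run from 0.55 (TEX47) to 2.37 (SLC25A40 and DBF4), and the shRNA 162 values from -0.12 to 0.66. ELAPOR2 (3.29 with shRNA 159) and TMEM243 (2.39 with shRNA 159) lie farther along and are not drawn.

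Across the 6 arrays the genes most like DBF4 were also its neighbours. Among 271 rows with 1 symbol whose highest and lowest arrays differed by 1 or more, the 8 with the highest Pearson correlation with DBF4 were ADAM22 (0.998), SRI (0.9975), SLC25A40 (0.996), RUNDC3B (0.9931), TMEM243 (0.9926), CROT (0.9918), CFAP69 (0.9911) and ELAPOR2 (0.991). All 8 lie on chromosome 7, at most 9 measured genes away from DBF4. ELAPOR2, TMEM243 and CFAP69 lie beyond the 10 nearest genes. They differed from control by 3.29, 2.39 and 1.98 with shRNA 159 and by 0.47, 0.88 and 0.38 with shRNA 162. DBF4, at 2.37 and 0.64, was thus not the highest of these genes with either hairpin. The 6 arrays fall into 3 groups, so these correlations describe the order of the groups and carry no test.

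The 10 nearest genes of each other member had median differences from control between -0.11 and 0.11 with either hairpin. The counts below stand beside 1.69% of all rows called higher and 0.839% lower with shRNA 159, and 5.88% higher and 3.64% lower with shRNA 162. With shRNA 159, 0 of the 10 neighbours of each of DBF4B, CDC7, MCM2, MCM3, MCM6, MCM7 and MCM10 passed in limma (0, 1, 3, 2, 1, 2 and 3 at an unadjusted p under 0.05), and 1 neighbour each of MCM4 (SNAI2, by 0.39) and MCM5 (TIMP3, by 0.52) fell. With shRNA 162 the median of the 10 neighbours was 0.03 for MCM2, against its own 0.51, and 0.01 for MCM7, against its own 0.33. MCM7 lies on chromosome 7 as well, and 1 of its neighbours, ZNF3, rose with shRNA 162 by 0.33. Among the neighbours of MCM2, 3 rose with shRNA 162, MGLL by 0.61, PLXNA1 by 0.52 and TPRA1 by 0.42. Among those of MCM10, 3 fell, BEND7 by 0.58, PHYH by 0.48 and UCMA by 0.31. TRAM2 beside MCM3 fell by 0.38 and SNAI2 beside MCM4 fell by 0.52, while beside MCM5 TIMP3 fell by 0.98 and APOL6 rose by 0.38. The neighbours of DBF4B, CDC7 and MCM6 had 0 that passed with shRNA 162 in limma (5, 1 and 0 at an unadjusted p under 0.05). TPRA1 is read in the opposite direction to MCM2, and their promoter windows share 279 bases. PRKDC, the DNA-dependent protein kinase gene next to MCM4, differed by -0.14 with shRNA 159 and by 0.32 with shRNA 162 and passed in neither, and between the hairpins it was lower with shRNA 159 by a difference of -0.46 (limma adjusted p = 0.017). That call was lost without shRNA 159 clone 2 (adjusted p = 0.065), shRNA 162 clone 1 (adjusted p = 0.093) or shRNA 162 clone 2 (adjusted p = 0.092).

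The neighbours of the other named replication and cell cycle genes were counted in the same way, 10 per gene. Of all rows, 1.69% were called higher and 0.839% lower with shRNA 159, and 5.88% higher and 3.64% lower with shRNA 162. Between the hairpins 4.02% of all rows were called higher with shRNA 159. RFC2 on chromosome 7 rose by 0.61 with shRNA 159, where 4 of its 10 neighbours rose, and by 0.52 with shRNA 162, where 3 rose. CDK6 on chromosome 7 had 6 neighbours that rose with each hairpin. With shRNA 159, PPP1CB on chromosome 2 had 4 neighbours that rose and E2F6 had 2, while CCND2 had 0 that passed in limma (1 at an unadjusted p under 0.05). With shRNA 162, CDKN1B on chromosome 12 had 5 neighbours that rose and FOXM1 on the same chromosome had 4. ATR had 3 neighbours that rose, MTBP had 3 that rose and 1 that fell, and CDT1 had 2 that rose. RFC4 and AURKA, which fell, had 2 neighbours each that fell, and RBL2 and CHEK2, which rose, had 1 each that fell. PRIM1, ORC3, RBL1 and POLD4 had 0 neighbours that passed with shRNA 162 in limma (3, 3, 0 and 0 at an unadjusted p under 0.05). WEE1, which passed between the hairpins, had 5 neighbours that were higher with shRNA 159 than with shRNA 162, and 4 that fell with shRNA 162. The part of neighbouring genes in these differences was not tested.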

How the data were processed

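Values were deposited as a log2 signal for each probe set of the Affymetrix Human Gene 1.0 ST array, made by the authors with Affymetrix's Exon Array Computational Tool, per the series' design text. Base 2 is an inference from values of 2.29 to 14.65, and how background and normalization were set was not given in the sources used here. Of 33297 rows, 21214 carried a symbol in the platform's probe table and were tested. A linear model with 3 groups was fitted to the values as deposited by lmFit and eBayes of limma 3.58.1 (R 4.3.3, two-sided tests, 3 residual and 5.31 prior degrees of freedom). A row passed where its p, adjusted over all 21214 rows by Benjamini-Hochberg, was under 0.05, and p-values quoted as adjusted come from limma. The number of arrays limits the precision. The p-values measure the spread between clones, of which each group had 2, labelled as independent.

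The members and gene lists were chosen with earlier results of these data known. Named genes are all members, up to 4 passing genes per list and comparison by smallest p, the 5 nearest genes with a row of their own on either side of a member in RefSeq (GRCh38.p14), whether or not they passed, and the 8 rows most like DBF4. Neighbours were also counted for the named list genes, and list genes that did not pass (ORC3 with shRNA 159, CDC45, GINS1, RIF1, E2F1, MKI67, PCNA, CCNA2) were named after their values were seen. A gene with several rows entered a list by its brightest. The fit was tested on simulated rows. Alternatives were a variance trend, rows above the median brightness, quantile normalization, clone number as a replicate block, a fit to the 4 arrays compared and leaving out each array. Figures used matplotlib 3.10.9 in Python 3.11.15.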

Additional observations from a re-analysis of the deposited data

Results flagged for a closer look

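The clones of the 2 hairpins differed, by the direct limma test of shRNA 159 minus shRNA 162, for the following named genes. All values are log2 differences, in which the hairpin and the history of its clones cannot be told apart. Among the members DBF4 stood at 1.73, MCM2 at -0.41 and MCM7 at -0.30. Since the members were chosen with this contrast known, these are given as values. TAX1BP3, the targeted gene, stood at 0.47, that is, less reduced with shRNA 159. Among list genes the difference was 0.61 for RFC4, 0.49 for AURKA, 0.47 for WEE1, 0.43 for PPP1CB and 0.36 for E2F6. It was -0.53 for CHEK2, -0.51 for CCND2, -0.46 for ATR, -0.43 for CDT1, -0.43 for PRIM1, -0.39 for FOXM1 and -0.36 for RBL1. Among neighbours of DBF4 it was 1.84 for CROT, 1.71 for SLC25A40, 1.51 for ADAM22, 1.12 for SRI, 0.92 for RUNDC3B, 0.86 for STEAP4, 0.77 for ABCB1, 0.67 for TEX47, 0.62 for ZNF804B and 0.37 for ABCB4. Farther along, it was 2.82 for ELAPOR2, 1.60 for CFAP69 and 1.51 for TMEM243. Among neighbours of the other members it was 0.51 for GJC1 and 0.30 for FZD2 (DBF4B), 0.50 for BEND7 (MCM10), 0.46 for TIMP3 (MCM5), -0.46 for PRKDC (MCM4), 0.30 for TRAM2 and -0.49 for GSTA2 (MCM3), and -0.34 for MGLL and -0.33 for CHCHD6 (MCM2).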

How the results depend on the processing

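Counts below follow the order shRNA 159 minus control, shRNA 162 minus control and shRNA 159 minus shRNA 162. All rows with a symbol gave 537, 2019 and 1836 calls, the 11 member rows 1, 3 and 3, and the 50 replication genes 1, 8 and 3. Among brighter rows only, all rows gave 946, 3090 and 2468, members 0, 6 and 5, and replication genes 3, 21 and 10. The 0 arises because the DBF4 row is too dim to be kept there, and 0 of the other 10 rows reached an unadjusted p under 0.05. With a variance trend all rows gave 1137, 3482 and 3022, members 1, 7 and 6, and replication genes 2, 20 and 9. Quantile normalization gave 565, 2152 and 1926 calls over all rows, 1, 3 and 3 among members and 1, 6 and 3 among replication genes. It split the shRNA 162 calls over all rows into 1078 higher and 1074 lower, against 1247 and 772. It moved the median of all rows by at most 0.03. With each array left out in turn, all rows gave 142 to 512, 526 to 2416 and 597 to 1352, members 1 to 1, 1 to 3 and 1 to 3, and replication genes 0 to 1, 1 to 9 and 1 to 3. The 0 was without control clone 1, with 6 at an unadjusted p under 0.05. A group left with 1 clone is assumed to vary like the others.

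Deviations of same-numbered clones correlated at -0.0517 between control and shRNA 162 and at -0.028 between shRNA 162 and shRNA 159. Between control and shRNA 159 they correlated at 0.263. The higher-numbered clone had the higher array median in every group. Whether same-numbered clones shared a batch was not tested. A replicate block on the clone number gave 584, 2128 and 1983 calls over all rows, 1, 3 and 4 among members and 1, 8 and 4 among replication genes. No call of a member changed sign in any alternative. Of the values of other named genes that passed, 15 of 422 lost the call in the alternatives that left out no single array and 188 of 534 with an array left out, and none reversed. Under the block the calls of CROT (0.38) and UCMA (-0.31) with shRNA 162 and of FZD2 (0.30) and TRAM2 (0.30) between the hairpins were lost (adjusted p = 0.053, 0.053, 0.051 and 0.054). The causes were not tested.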
